A study of Mus musculus with 6 samples.

Results

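The enzymes of de novo lipogenesis are the proteins that turn citrate and acetate into long-chain fatty acids, together with the enzymes that supply the NADPH for this synthesis. They were followed in epididymal white adipose tissue (eWAT), the abdominal fat pad beside the epididymis, of obese db/db and lean db/+ mice. A list of 10 genes, chosen by name (Acly, Acaca, Acacb, Fasn, Acss2, Me1, Slc25a1, Thrsp, G6pdx and Tkt), was matched to the gene symbols of the array table. It found 19 probes for 9 of the 10 genes, out of 17023 named genes tested, and Acacb, which encodes the acetyl-CoA carboxylase of the mitochondrial surface, was not analysed here. The study compared 3 db/db with 3 db/+ mice, all aged 10 weeks and, per the file headers, all given a vehicle. db/db mice carry a leptin receptor mutation on both alleles and are obese and severely hyperglycemic per the labels, while the lean db/+ mice carry 1 copy of the mutation, so no array holds fat of a mouse without it. Each array carried the RNA of 1 mouse in the Cy5 channel against a pool of lean db/+ eWAT, also given the vehicle, in the Cy3 channel. The question posed for the series was which transcripts go up or down in db/db relative to db/+ eWAT.

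In lipogenesis, citrate leaves the mitochondrion and is cleaved to acetyl-CoA, which acetyl-CoA carboxylase turns into malonyl-CoA and fatty acid synthase builds into palmitate with NADPH as the reductant. In fat cells the pathway is induced by feeding and insulin through the transcription factors SREBP-1c and ChREBP, which are encoded by Srebf1 and Mlxipl. Malonyl-CoA, its first committed product, also restrains the entry of fatty acids into mitochondria for oxidation.

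The arrays were alike in coverage, with between 23355 and 23506 measured probes each, but not in spread: the SD of the log2 ratios was between 0.53 and 0.68 on db/db arrays and between 0.23 and 0.28 on db/+ arrays. Both channels of the db/+ arrays held lean db/+ fat, while the db/db arrays set db/db fat against it. Of 19 listed adipocyte markers 18 were measured, and the mean Cy5 intensity of their probes reached from 0.01 (Pnpla2) to 20.7 (Cidec) in db/db fat and from 0.0126 (Pnpla2) to 29.2 (Cidec) in db/+ fat. Cidec had values on 4 of the 6 arrays. The defining genes Adipoq, which encodes adiponectin, and Fabp4, a fatty acid binding protein, had mean Cy5 intensities of 1.01 and 7.57 in db/db fat and 3.84 and 11.6 in db/+ fat. Markers of epididymis epithelium set db/db replicates 2 and 3 apart from the rest. Its 11 measured markers had a median log2 ratio of -1.90, 4.02 and 4.09 for db/db replicates 1, 2 and 3, against 0.74, 0.06 and -1.87 in db/+ replicates 1, 2 and 3. Having 6 arrays in all limits how precise each value can be, and limma p-values are set against the spread between these 6 mice. The authors' deposited p-values given below compare the channels of a single array and do not measure that spread.

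Messenger RNAs along most of the pathway were lower in db/db fat. By limma, 5 of the 9 measured genes fell at a Benjamini-Hochberg adjusted p under 0.05: Fasn, Tkt, Acss2, Slc25a1 and Acaca. Among all genes tested, 3.77% were called lower by the same test and 6.7% were called in either direction. No gene of the list was called higher, against 2.94% of all genes. Thrsp, Me1 and Acly had negative log2 fold changes that missed the threshold, and G6pdx had a positive one that missed it. For 8 of the 9 genes the 3 db/db ratios all lay below the 3 db/+ ratios, which was so for 14.7% of the genes measured on every array. For 7 of the 9 the difference was at least 2-fold, against 2.26% of all genes tested. The median log2 fold change of the 9 genes was -1.25, and that of all genes was 0 to 2 decimals. These values for all genes include dim genes, and on single arrays between 24.6% and 39.6% of the log2 ratios were exactly 0. The test was then limited to probes with mean Cy5 over all 6 arrays and mean Cy3 over the db/+ arrays above 0.1. In that setting 879 of 9770 genes were called lower and 1483 in either direction. Of the 9 lipogenic genes, 7 were called lower in that setting. Acaca was among these 7, with a mean Cy5 of 0.0833 in db/db and 0.14 in db/+ fat. It thus passed the filter through the db/+ arrays. The shares without overlap and with a 2-fold difference were not computed for these brighter genes. In bulk tissue, fewer adipocytes and less messenger RNA per adipocyte cannot be told apart. The number of calls moved with each array left out, for these genes and for all genes: 7, 0 and 3 of the 9 were called lower without db/db replicates 1, 2 and 3, where 10.9%, 0.599% and 1.79% of all genes were, and 1, 1 and 0 without db/+ replicates 1, 2 and 3, where 0.605%, 0.347% and 0.135% were. The log2 fold changes moved less in these fits, between -2.74 and -2.39 for Fasn and between -1.99 and -1.70 for Tkt. Quantile normalization of the ratios gives all arrays the same spread, which differed between the groups as deposited. After it, no gene of the list and none of all genes was called by limma. At an unadjusted limma p under 0.05, 5 of the 9 were lower, and 2173 of all genes passed in either direction.

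**Figure D1:**
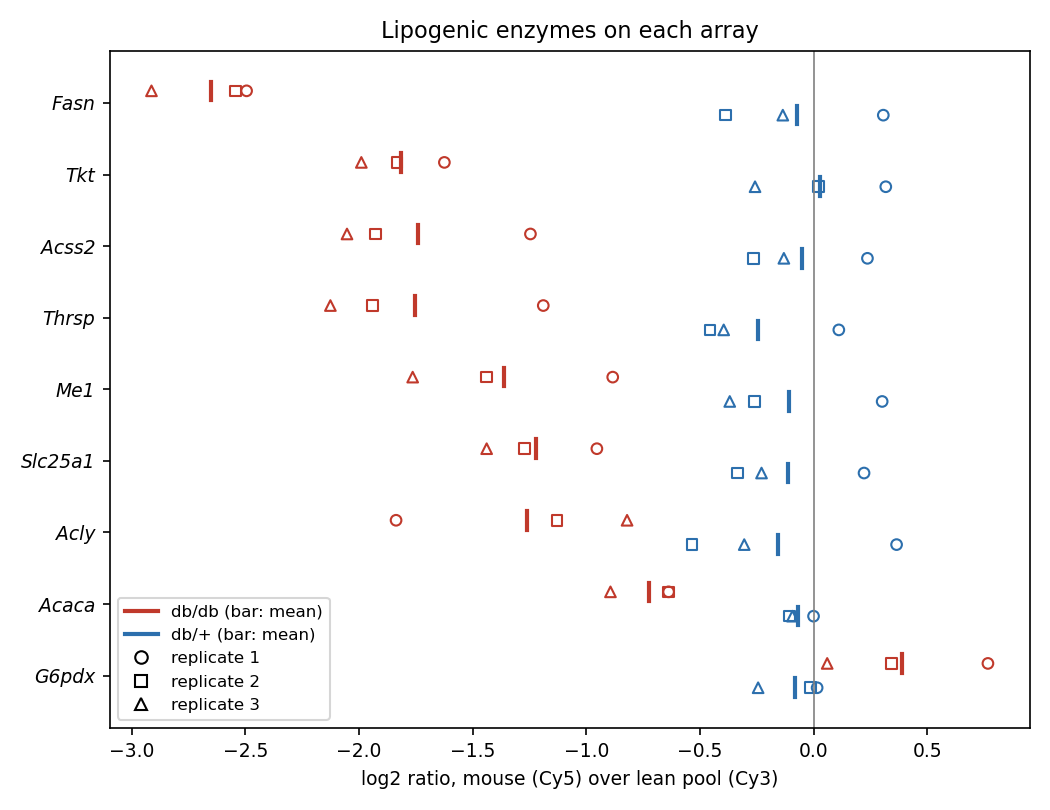
Log2 ratio of each mouse over the lean pool for the 9 lipogenic genes, db/db above db/+ within each row, with 1 symbol per replicate and a bar at the group mean (n = 3 each). For every gene but G6pdx the db/db symbols lie to the left of all db/+ symbols, and Fasn is the farthest to the left on all 3 db/db arrays.

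Of the 3 genes that supply cytosolic acetyl-CoA, Slc25a1 and Acss2 fell and Acly did not pass the test. Slc25a1, the carrier that exports citrate from the mitochondrion, had log2 ratios of -0.95, -1.27 and -1.44 in db/db replicates 1, 2 and 3, against 0.22, -0.34 and -0.23 in db/+ replicates 1, 2 and 3. Its mean Cy5 intensity, on the authors' arbitrary normalized scale, was 0.530 ± 0.0866 in db/db and 1.13 ± 0.355 in db/+ fat (SD, n = 3 each). It fell by 1.11 ± 0.20 on the log2 scale (SE; limma adjusted p = 0.0494), to 46.4% of the db/+ ratio, with no overlap of the groups. This call lay at the edge of the threshold and was lost in 14 of 19 alternative settings, among them the fit of each probe separately (adjusted p = 0.0558), with adjusted p over the settings between 0.0191 and 0.708.

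Acly, the ATP-citrate lyase that cleaves the exported citrate, varied most between mice. Its log2 ratios were -1.84, -1.13 and -0.82 in db/db replicates 1, 2 and 3, against 0.37, -0.53 and -0.30 in db/+ replicates 1, 2 and 3. The groups did not overlap, but the gap between them was 0.29 while the db/db mice alone spanned 1.02 and the db/+ mice 0.90, and the log2 fold change of -1.10 ± 0.37 (SE) did not pass (limma adjusted p = 0.164). Acly was the single gene of the 9 with its lowest db/db value in replicate 1, where 26.2% of all genes had theirs. Its Cy5 intensity of 29.7 in db/+ replicate 1 came within 1% of the top of that array, so the size there is approximate.

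Acss2, the cytosolic synthetase that makes acetyl-CoA from acetate, had Cy5 intensities of 0.35, 0.2 and 0.2 in individual db/db mice, against 0.99, 0.7 and 0.74 in individual db/+ mice. The log2 ratios were -1.25, -1.93 and -2.05 in db/db replicates 1, 2 and 3, against 0.24, -0.26 and -0.13 in db/+ replicates 1, 2 and 3. The least lowered db/db mouse, replicate 1, was still 0.98 log2 units below the lowest db/+ mouse. The gene fell by 1.69 ± 0.27 (SE; limma adjusted p = 0.0367), to 31.0% of the db/+ ratio. The call was lost in 10 of 19 alternative settings, with adjusted p over the settings between 0.00927 and 0.459.

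The 2 synthetic steps themselves differed in how clearly they were lower. Fasn, fatty acid synthase, had the lowest ratio of the 9 genes in each db/db mouse, with -2.49, -2.54 and -2.91 in db/db replicates 1, 2 and 3, against 0.31, -0.39 and -0.14 in db/+ replicates 1, 2 and 3. The db/db values were close together and 2.11 log2 units below the lowest db/+ value, the widest gap among the 9 genes. Its mean Cy5 intensity was 2.49 ± 0.293 in db/db and 14.03 ± 3.98 in db/+ fat (SD, n = 3 each). Fasn fell by 2.58 ± 0.22 (SE; limma adjusted p = 0.0140), to 16.7% of the db/+ ratio, and ranked number 11 from the bottom among the log2 fold changes of all 17023 genes. Its call was lost in 6 of 19 alternative settings, with limma adjusted p over the settings between 0.00425 and 0.402. In the authors' deposited table, the p-value of its Cy5 against its Cy3 intensity lay between 4.61e-29 and 9.64e-23 on the db/db arrays and between 0.01 and 0.37 on the db/+ arrays.

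Fasn had 4 probes for 2 target sequences, and all of those tested were lower. The probe used above was the brightest with values on all 6 arrays. A dimmer probe for the other target gave a smaller log2 fold change of -1.45 ± 0.17 (SE; limma adjusted p over all probes = 0.0243). A brighter probe with values on 5 arrays gave -2.45 ± 0.15 (adjusted p over all probes = 0.0169), and it reached within 1% of the top Cy5 intensity on both db/+ arrays that had a value. The brightest probe had no value on any db/+ array, while its log2 ratios were -1.67, -2.09 and -2.24 in db/db replicates 1, 2 and 3. The size of the fall thus varied with the probe, and its direction did not among the probes tested.

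Acaca, which encodes acetyl-CoA carboxylase 1, the cytosolic enzyme that makes the malonyl-CoA for synthesis, was called lower on a dim probe and its probes disagreed. On the probe used, the Cy5 intensity was 0.09, 0.09 and 0.07 in individual db/db mice, against 0.14, 0.13 and 0.15 in individual db/+ mice. These are a few steps of 0.01, the unit in which most intensities were deposited. The log2 ratios were -0.64, -0.64 and -0.89 in db/db replicates 1, 2 and 3, against 0.00, -0.11 and -0.09 in db/+ replicates 1, 2 and 3. The fall of 0.66 ± 0.09 (SE; limma adjusted p = 0.0269) left 63.4% of the db/+ ratio. In 12 of 19 alternative settings the call was lost or the sign turned, with adjusted p over the settings between 0.0106 and 0.731.

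The 6 Acaca probes stand for 4 target sequences. All 3 probes for the target of the probe used had negative log2 fold changes, of -0.66, -0.98 and -1.41, with adjusted p over all probes of 0.0299, 0.0668 and 0.0372. The brightest Acaca probe, for another target and with values on 5 arrays, gave 0.05 ± 0.07 (SE; limma adjusted p over all probes = 0.733), and its ratios were -0.04 and -0.10 in db/db replicates 1 and 3, against -0.07, -0.06 and -0.22 in the db/+ replicates. A probe for the third target gave -0.02 ± 0.21 (adjusted p over all probes = 1). A very dim probe for the fourth gave -1.02 ± 0.48 (adjusted p over all probes = 0.312) from Cy5 intensities between 0.00744 and 0.02. Whether Acaca was lower thus depended on the target sequence, and where the targets lie in the gene was not analysed here. Across all 17 tested probes of the 9 genes, 15 had a negative log2 fold change and 7 were called lower, against 3.08% called lower among all probes tested.

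**Figure D2:**
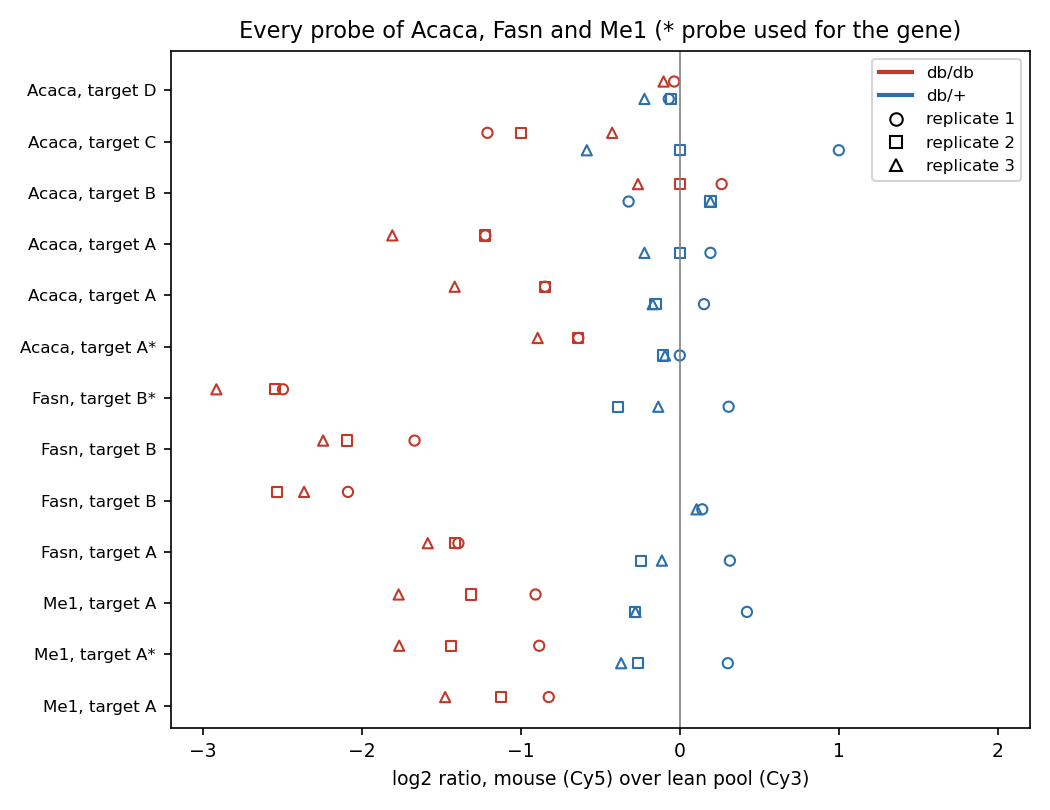
Log2 ratio of each mouse over the lean pool for every probe of Acaca, Fasn and Me1, the 3 genes with several probes, db/db above db/+ within each row. Letters separate target sequences of a gene, a star marks the probe used, and rows without db/+ symbols had no value on those arrays. The Fasn and Me1 probes lie between -2.91 and -0.82 in db/db mice, whereas the Acaca targets differ.

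The suppliers of NADPH and pentose phosphates did not move as a block. Me1, the cytosolic malic enzyme, had log2 ratios of -0.88, -1.44 and -1.76 in db/db replicates 1, 2 and 3, against 0.30, -0.26 and -0.37 in db/+ replicates 1, 2 and 3. The groups were apart by 0.51, but the db/db mice spanned 0.88, and the log2 fold change of -1.25 ± 0.30 (SE) missed the threshold (limma adjusted p = 0.0831). Another probe for the same target gave -1.28 ± 0.31 (adjusted p over all probes = 0.0955). The brightest Me1 probe again had no value on the db/+ arrays and had log2 ratios of -0.82, -1.12 and -1.47 in db/db replicates 1, 2 and 3. Without db/db replicate 1, the least lowered mouse, Me1 was called lower by limma at -1.49, and its adjusted p over all settings lay between 0.0314 and 0.708.

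Tkt, the transketolase of the non-oxidative pentose phosphate branch, had Cy5 intensities of 9.04, 7.53 and 7.26 in individual db/db mice, against 29.7, 24.4 and 21.2 in individual db/+ mice. Its log2 ratios were -1.62, -1.83 and -1.99 in db/db replicates 1, 2 and 3, against 0.32, 0.02 and -0.26 in db/+ replicates 1, 2 and 3. The db/db mice differed among themselves by 0.37, less than any other of the 9 genes but Acaca. Tkt fell by 1.84 ± 0.18 (SE; limma adjusted p = 0.0170), to 27.9% of the db/+ ratio, and in db/+ replicate 1 it was within 1% of the top Cy5 intensity there. Its call was lost in 8 of 19 alternative settings, with adjusted p over the settings between 0.00549 and 0.358.

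G6pdx, the glucose-6-phosphate dehydrogenase that opens the oxidative branch, was the gene with a positive log2 fold change. Its Cy5 intensities were 1.6, 1.18 and 0.98 in individual db/db mice, against 0.92, 1 and 0.76 in individual db/+ mice. The log2 ratios were 0.77, 0.34 and 0.06 in db/db replicates 1, 2 and 3, against 0.02, -0.01 and -0.24 in db/+ replicates 1, 2 and 3. The groups did not overlap, as for 11.4% of genes in this direction, but they were separated by only 0.04, and the log2 fold change of 0.47 ± 0.20 (SE) did not pass (limma adjusted p = 0.261). In the authors' deposited table the p-value on single db/db arrays reached from 4.45e-04 to 0.65.

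Thrsp, a small thyroid hormone responsive protein that accompanies lipogenesis and promotes it in liver and fat, had log2 ratios of -1.19, -1.94 and -2.13 in db/db replicates 1, 2 and 3, against 0.11, -0.46 and -0.40 in db/+ replicates 1, 2 and 3. Its mean Cy5 intensity was 1.12 ± 0.460 in db/db and 3.20 ± 0.839 in db/+ fat (SD, n = 3 each). At -1.51 ± 0.31 (SE) it lay just outside the threshold (limma adjusted p = 0.0607). It was called lower in 4 of 19 alternative settings, with adjusted p over the settings between 0.0157 and 0.708.

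**Figure D3:**
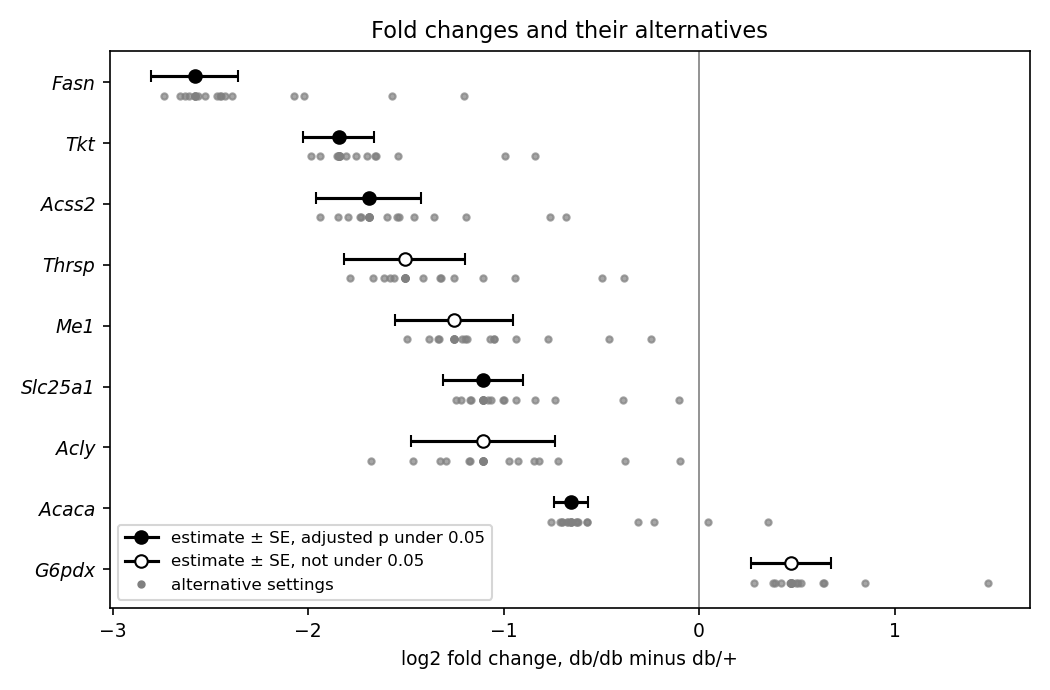
Log2 fold change (db/db minus db/+) of the 9 genes with its standard error (large symbols, filled where the limma adjusted p was under 0.05) and, under each, the values from the 19 alternative settings (small grey symbols). Fasn lies between -2.74 and -1.20 in all settings, and Acaca crosses 0 in 2 of them.

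Most of the 9 genes had the same mouse at one end of each group. In db/+ mice, replicate 1 had the highest ratio of its group for 9 of 9 genes, whereas 23.2% of all genes had their highest db/+ ratio there. In that mouse 8 of the 9 lay above the lean pool, while 8 of 9 in replicate 2 and 9 of 9 in replicate 3 lay below it. Among db/db mice, replicate 3 had the lowest ratio for 8 of 9 genes, Acly being the exception, against 33.0% of all genes. The 9 genes had medians of -1.19, -1.44 and -1.76 for db/db replicates 1, 2 and 3, against 0.24, -0.26 and -0.24 in db/+ replicates 1, 2 and 3. No test was made of these orders, since the genes of 1 mouse share its RNA. The db/+ mean of each gene lay between -0.25 and 0.03 from the pool, which is itself of lean db/+ fat. By limma none of the 9 differed from it, also at an unadjusted p under 0.05. The lack of calls was not particular to the 9: none of all 17023 genes was called, and 228 had an unadjusted p under 0.05.

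Markers of other cells moved with the same arrays. The limma shares to set beside them are 3.77% of all genes called lower and 2.94% called higher. Adipocyte markers were lower in part: of 18 measured, 6 fell and 1, Lep, rose, with a median log2 fold change of -1.12 and list medians of -0.60, -1.07 and -1.39 for db/db replicates 1, 2 and 3, against -0.10, 0.10 and -0.04 in the db/+ replicates. Their summed Cy5 intensity ranged from 65.1 to 79.9 in db/db and from 154 to 166 in db/+ fat. Missing values add nothing to these sums, and the bright Cidec had no value in db/db replicate 1 and db/+ replicate 2. The sums thus do not all cover the same markers. In the db/db mice the lipogenic medians followed the same order as the adipocyte marker medians, and in the db/+ mice they did not. Relative to each array's adipocyte marker median, a centring that raises the log2 fold change of the median gene by 1.01, Fasn stood at -1.57, Tkt at -0.84 and Acss2 at -0.68, and these 3 were still called lower by limma (adjusted p = 0.00525, 0.0144 and 0.0265), as were 0.458% of all genes. Acly at -0.10, Slc25a1 at -0.10, Me1 at -0.25 and Thrsp at -0.50 were not called on this scale, Acaca stood at 0.35 without a call, and G6pdx at 1.48 was called higher (adjusted p = 0.00234), as were 82.9% of all genes on this scale.

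Of 14 measured macrophage markers, 7 rose and none fell, against 2.94% of all genes called higher and 3.77% called lower. Their median log2 fold change was 1.49, with summed Cy5 intensities from 90.9 to 168 in db/db and from 43.1 to 54.2 in db/+ fat. Of 8 endothelial markers 1 fell (median -0.49), with sums from 9.81 to 18.2 in db/db and from 19.5 to 26.01 in db/+ fat. The epididymis markers summed to between 1.58 and 185 in db/db and between 1.53 and 13.8 in db/+ fat, and 1 of 11, Cst8, was called higher. Cst8 had no value in db/db replicate 1 and db/+ replicate 3, the arrays with the lowest medians of these markers. Lymphocyte markers summed to between 0.27 and 0.40 in db/db and between 0.28 and 0.41 in db/+ fat, and no marker of any list had an intensity of 0. In db/db replicate 1, where the epididymis markers were low, the 8 genes other than G6pdx ranged from -2.49 to -0.64 and lay below all db/+ mice. With these markers entered as a covariate, Fasn (-2.53) and Tkt (-1.81) were called lower (limma adjusted p = 0.0376 and 0.0437), as were 1.94% of all genes. In that fit Acaca at -0.62, Acss2 at -1.46 and Slc25a1 at -1.01 were not called (adjusted p = 0.0638, 0.0640 and 0.104). The part of the macrophage, endothelial and adipocyte markers in the lipogenic values was not tested further.

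**Figure D4:**
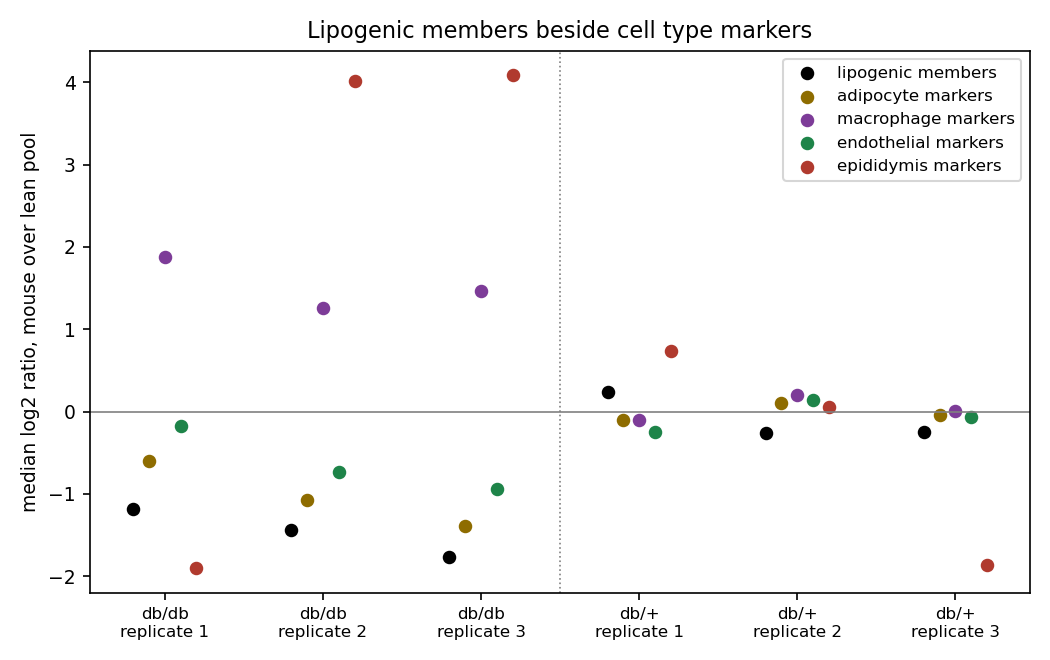
Median log2 ratio over the lean pool of the 9 lipogenic genes and of adipocyte, macrophage, endothelial and epididymis markers on each array, db/db to the left of db/+. The lipogenic median is below 0 on all 3 db/db arrays and above 0 on db/+ replicate 1, and the epididymis median separates db/db replicates 2 and 3 from replicate 1.

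Most enzymes that feed the pathway upstream were lower as well. Of 13 measured genes of glucose entry, pyruvate dehydrogenase and citrate formation, 8 fell and none rose. Among all genes tested, 3.77% were called lower and 2.94% higher. The median log2 fold change of the 13 was -0.71, against 0 for all genes. Pcx, the pyruvate carboxylase that refills oxaloacetate, fell by 1.54 ± 0.24 (SE; limma adjusted p = 0.0347) and Slc2a4, the insulin-responsive glucose transporter, by 1.33 ± 0.23 (adjusted p = 0.0419). The pyruvate dehydrogenase genes Pdhb, Pdha1, Dlat and Dld fell by 1.00, 0.84, 0.71 and 0.63, and the hexokinase gene Hk2 by 0.70. Cs, the citrate synthase, at -0.81 (adjusted p = 0.0541), and Mdh1 at -0.49 (adjusted p = 0.0504) missed the threshold. Acss1, the mitochondrial counterpart of Acss2, had a log2 fold change of 0.41 and was not called (adjusted p = 0.449).

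Of 9 other NADPH and pentose phosphate enzymes measured, 1 fell, none rose and 6 had a negative log2 fold change (median -0.37). By the same test 3.77% of all genes were called lower and 2.94% higher. Idh2, the mitochondrial NADP-linked isocitrate dehydrogenase, fell by 0.55 ± 0.09 (SE; limma adjusted p = 0.0381). Pgd and Pgls, which follow G6pdx in the oxidative branch, had log2 fold changes of 0.23 and 0.18 and were not called (adjusted p = 0.564 and 0.214). Rpia and Rpe, which feed Tkt in the non-oxidative branch, had -0.42 and -0.37 (adjusted p = 0.133 and 0.128), and the cytosolic Idh1 had -0.44 (adjusted p = 0.279). Aldh1l1, a folate enzyme that makes NADPH, had -0.67 (adjusted p = 0.281) on a probe with mean Cy5 intensities of 0.0133 in db/db and 0.02 in db/+ fat, close to the smallest step. The 3 oxidative genes thus had positive values and the 3 non-oxidative ones negative values, of which Tkt passed the test.

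None of 15 measured regulators of lipogenic transcription was called by limma, and their median log2 fold change was -0.07. In a list of this size, no call is close to the 6.7% of all genes called in either direction. Srebf1 had 0.03 ± 0.10 (SE; adjusted p = 0.891) on a dim probe, whose Cy5 intensity averaged 0.08 in db/db and 0.0867 in db/+ fat, where a change of 1 step of 0.01 is a large share of the signal. Mlxipl had -0.52 ± 0.17 (adjusted p = 0.154), with ratios of -0.45, -0.52 and -0.90 in db/db replicates 1, 2 and 3 that all lay below 0.12, -0.15 and -0.28 in the db/+ replicates. The largest values were 0.97 for Mid1ip1, a relative of Thrsp that activates acetyl-CoA carboxylase, -0.88 for the thyroid hormone receptor gene Thrb and -0.78 for Nr1h3, which encodes the liver X receptor alpha (adjusted p = 0.538, 0.119 and 0.235). Mid1ip1 was not of 1 direction in db/db mice: its ratios were -0.53, 1.61 and 2.11 in replicates 1, 2 and 3, in the order of the epididymis markers. In db/+ replicates 1, 2 and 3 its ratios were 0.59, -0.40 and 0.08, not in the order of these markers. A link between them was not tested.

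**Figure D5:**
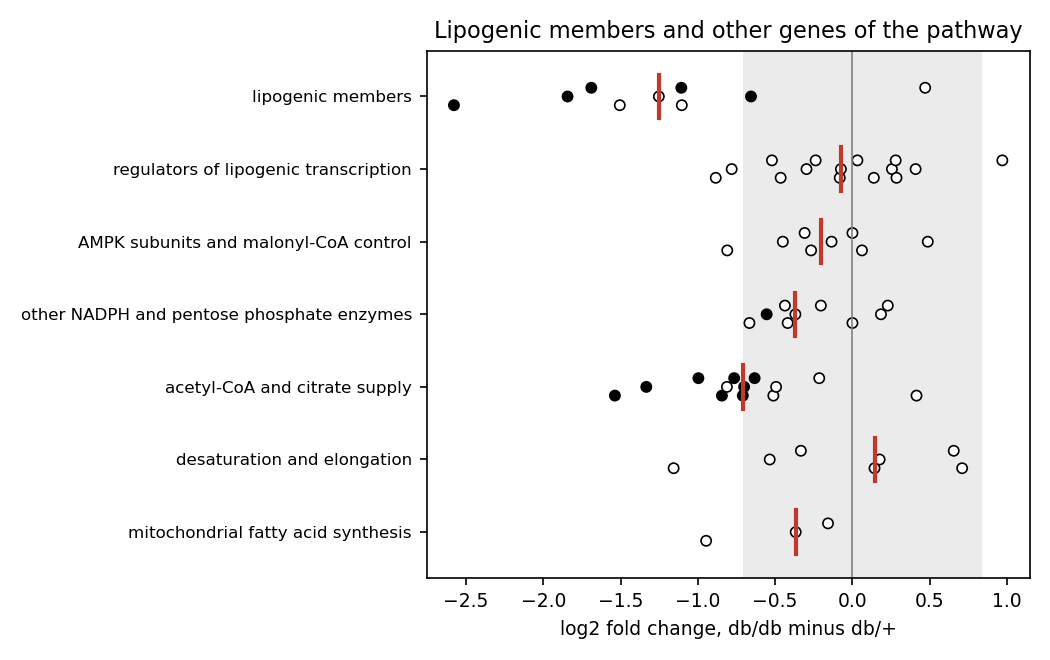
Log2 fold change (db/db minus db/+) of the 9 lipogenic genes and of 6 further lists of the pathway, 1 symbol per gene, filled where the limma adjusted p was under 0.05, with a red bar at the list median. The grey band spans the 5th to 95th percentile of all 17023 genes (-0.70 to 0.83), and filled symbols occur in the lipogenic list, in acetyl-CoA and citrate supply and, for Idh2, among the other NADPH enzymes.

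Since most of the 9 genes were lower together, the 250 bases before their RefSeq transcription starts (GRCm38.p6) were searched on both strands for the letters of sites that lipogenic transcription factors are known to use. These were TCACNCCA, the core of the sterol element bound by SREBP, CACGTG, the E-box of USF and ChREBP, CCAAT, the box of NF-Y, and GGGCGG, the GC box of Sp1. All 10 genes matched the table, with 11 windows, since Me1 has 2 starts. A CCAAT box stood in 6 of the 11 windows, against 33.8% of all 32851 windows, and a GC box in 6 of the 11, against 32.7%. The CCAAT windows were of Acacb, Acss2, Fasn, Me1, Slc25a1 and Thrsp, and the GC windows of Acly, Acss2, G6pdx, Me1, Slc25a1 and Tkt. Acacb was not measured, G6pdx was not lower, and the CCAAT and GC boxes of Me1 lay before different starts. Neither count is thus of the lowered genes alone. The sterol core stood in the Tkt window alone, against 3.67% of all windows, and CACGTG in that of Slc25a1 alone, against 6.02%. The window of Acaca, which was also called lower, held no match to any of these sites and is not shown. Those of the other called genes, Fasn, Tkt, Acss2 and Slc25a1, are shown, with that of G6pdx, which was not lower, for comparison. Each runs 5′ to 3′ in the direction of the gene, with the matches in capitals. Their places are chr11:120824548-120824797 on the minus strand for Fasn, chr14:30548881-30549130 on the plus strand for Tkt, chr2:155517793-155518042 on the plus strand for Acss2, chr16:17928220-17928469 on the minus strand for Slc25a1 and chrX:74428881-74429130 on the minus strand for G6pdx.
Fasn: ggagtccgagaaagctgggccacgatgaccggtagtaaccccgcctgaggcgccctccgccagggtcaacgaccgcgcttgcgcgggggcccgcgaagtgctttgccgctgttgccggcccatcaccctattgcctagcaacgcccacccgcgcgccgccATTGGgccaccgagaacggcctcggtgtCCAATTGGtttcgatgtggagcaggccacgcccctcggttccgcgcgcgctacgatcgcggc
Tkt: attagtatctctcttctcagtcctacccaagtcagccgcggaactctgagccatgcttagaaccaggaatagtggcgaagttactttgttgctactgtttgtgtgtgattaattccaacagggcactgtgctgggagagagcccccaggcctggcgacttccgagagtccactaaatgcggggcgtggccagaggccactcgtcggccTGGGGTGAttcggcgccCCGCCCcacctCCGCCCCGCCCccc
Acss2: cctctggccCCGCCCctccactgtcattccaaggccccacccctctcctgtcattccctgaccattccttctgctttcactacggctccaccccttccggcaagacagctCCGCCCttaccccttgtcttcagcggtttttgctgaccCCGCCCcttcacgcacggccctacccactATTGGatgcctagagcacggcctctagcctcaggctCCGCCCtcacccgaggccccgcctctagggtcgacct
Slc25a1: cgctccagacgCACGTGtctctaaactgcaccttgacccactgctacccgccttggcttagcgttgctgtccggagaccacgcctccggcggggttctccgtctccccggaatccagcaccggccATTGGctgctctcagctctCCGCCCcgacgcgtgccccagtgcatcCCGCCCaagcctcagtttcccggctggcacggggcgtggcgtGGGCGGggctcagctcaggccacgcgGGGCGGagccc
G6pdx: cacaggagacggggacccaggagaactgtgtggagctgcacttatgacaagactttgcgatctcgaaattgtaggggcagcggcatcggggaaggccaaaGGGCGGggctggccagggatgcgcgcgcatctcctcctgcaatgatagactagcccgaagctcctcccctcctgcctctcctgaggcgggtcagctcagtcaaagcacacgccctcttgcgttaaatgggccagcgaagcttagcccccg
Fasn, with the largest fall, held 3 CCAAT boxes that start 90, 62 and 59 bases before the transcription start, the last 2 of them overlapping on opposite strands, and no other match. Tkt held the sterol core, in the reverse direction, 42 bases before the start and 3 GC boxes. Acss2 held 1 CCAAT and 4 GC boxes, and Slc25a1 1 E-box, 1 CCAAT and 4 GC boxes. The window of G6pdx held 1 GC box. The start used in eWAT was not measured, and a match in letters is not a bound site.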

How the data were processed

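Scans of two-colour Agilent arrays went through Agilent Feature Extraction 8.5.1.1, per the submitters' processing notes, after total RNA had been amplified in a pair of rounds and labelled, per the labels' protocols, with the mouse in Cy5 and the lean pool in Cy3 and no dye swap. The deposited table lists, for 23556 probes, the normalized intensity of both channels and a p-value per array, with intensities mostly in steps of 0.01, and the deposited series matrix holds log10 ratios. The deposited log10 values equalled log10 of Cy5 over Cy3 to within 0.00125 on the db/+ arrays. Background correction, normalization and the model behind the deposited p-value are not stated in the labels or headers used here. The db/db columns in that table bear mouse numbers rather than replicate numbers, so every ratio was taken from the series matrix and not, as first planned, from the intensities, and 3 columns, the Cy3 intensities of the db/db arrays, were not used.

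The log10 ratios were turned into log2 ratios of Cy5 over Cy3 without further normalization. Gene symbols were updated through a RefSeq table (17207 probes were current, 318 were renamed by accession, 1790 by synonym and 7 named by accession alone, 2017 kept their name and 2217 had none). A gene was its probe with the highest mean log2 intensity (Cy5 of all arrays and Cy3 of the db/+ arrays) out of the probes with 6 values, and failing that out of those with 2 or more values in each group. limma 3.58.1 in R 4.3.3 compared db/db with db/+ without a block over 17023 genes, with Benjamini-Hochberg adjustment and a threshold of 0.05. The fit was tested on simulated data. Tables and figures used Python 3.11.15, pandas 2.3.3, numpy 2.4.6 and matplotlib 3.10.9.

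The members, the other lists and the alternatives were chosen with earlier results of these data known. The text names all members, every called gene of each pathway list and, where a list had fewer than 3, its largest changes up to 3, except that 1 called gene is not reported here. Gene sets were counted, not tested. Acss1, Cs, Mdh1, Idh1, Pgd, Pgls, Srebf1 and Mlxipl, the adipocyte genes named for the tissue, Lep, and further single genes outside this rule were chosen after their values were seen. Same-numbered mice of the 2 groups did not deviate together: their correlations over 16857 genes were -0.48, -0.42 and -0.02.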

Additional observations from a re-analysis of the deposited data

How the results depend on the processing

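Of the 9 lipogenic genes, 5 were called lower. This number was 0 after quantile normalization, 0 with arrays scaled to 1 median absolute deviation and 0 with a replicate block. It was 3 from the Cy5 channel alone, 2 with a covariate for the epididymis markers and 3 relative to the adipocyte marker median. Probes with means over 0.1 in both channels gave 7, array weights 7 and an intensity trend with a robust prior 6. The mean of all probes of a gene, each probe fitted separately and the brightest probe gave 4 each. Leaving out 1 replicate gave between 0 and 7. In db/db replicate 1 alone, the median log2 fold change of the 9 genes was -0.94. Of the settings without a call, those with more than 1 db/db mouse were also counted at an unadjusted p under 0.05. They gave 5 lower genes after quantile normalization, 4 after scaling and 7 with the block. They gave 7 without db/db replicate 2 and 7 without db/+ replicate 3. The 1141 genes called by limma became 0, 2 and 0 with quantile normalization, scaling and the replicate block (2173, 1798 and 3082 at an unadjusted p under 0.05), 477 from Cy5 alone, 3502 with array weights, 14192 relative to the adipocyte marker median, 1791 in db/db replicate 1 alone and between 54 and 3416 when 1 replicate was left out. The share of higher genes among calls was 43.8%, against 99.5% relative to the adipocyte markers, which shifts all genes by construction, 60.1% with the epididymis covariate, 63.4% in db/db replicate 1 alone and 0% of the 2 calls after scaling. Every member kept its direction in every setting run except Acaca, which stood at 0.35 relative to the adipocyte markers and at 0.048 on its brightest probe. The last setting and db/db replicate 1 alone were chosen after the data were seen, and with replicate 1 alone the spread comes from the db/+ mice, with the lone db/db mouse assumed to vary like them. The replicate numbers do not pair the mice, and no sample correlated best with its own number. Background correction and a slide or scan block were not run, since the tables used give no such columns, nor were loess within arrays, an offset on both intensities and ratios rebuilt from the intensities, which need the Cy3 columns left out. Where the cause of a change is not named, it was not tested.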

Other observations

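Desaturases and elongases modify the fatty acids that lipogenesis makes. None of the 7 measured was called by limma, where 3.77% of all genes were called lower, and 3 of the 7 had a negative log2 fold change (median 0.14). No test set this list against the lipogenic genes. Scd1, the stearoyl-CoA desaturase, had -1.16 ± 0.31 (SE; adjusted p = 0.105), with ratios of -0.51, -1.31 and -1.66 in db/db replicates 1, 2 and 3, against 0.02, -0.05 and 0.02 in the db/+ replicates. Its relative Scd2 had 0.14 (adjusted p = 0.834) and the elongase gene Elovl5 -0.54 (adjusted p = 0.0723). Fads1 and Fads2, the desaturases of polyunsaturated fatty acids, had 0.71 and 0.66 (adjusted p = 0.104 and 0.693). For Fads2 the log2 ratios reached -1.20, 1.23 and 1.67 for db/db replicates 1, 2 and 3, and those of the epididymis markers also separated replicate 1 from the other db/db mice. In db/+ replicates 1, 2 and 3 the Fads2 ratios were 0.53, -0.93 and 0.14, not in the order of these markers. A link between them was not tested.

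Genes listed for the AMP-activated kinase and for malonyl-CoA control gave no call either. Mlycd, the decarboxylase that removes malonyl-CoA, had -0.81 ± 0.16 (SE; limma adjusted p = 0.0537), and its db/db ratios of -0.46, -0.78 and -1.03 lay below all db/+ ratios. None of the 8 measured genes of its list, which holds subunits of the AMP-activated kinase, passed the test (median -0.20). With so few genes, this is close to the 6.7% of all genes called in either direction. The largest values among these subunits were 0.49 for Prkab1 and -0.45 for Prkaa2 (adjusted p = 0.348 and 0.205). Of mitochondrial fatty acid synthesis, a separate pathway that supplies lipoic acid, 3 genes were measured, none was called, and the acyl carrier protein gene Ndufab1 had -0.95 (adjusted p = 0.103), Mecr -0.37 (adjusted p = 0.294) and Acsf3 -0.16 (adjusted p = 0.487).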
